A study of Mus musculus with 3 samples.

Results

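C1q-positive macrophages were examined among CD45+ cells, that is immune cells, sorted from the sciatic nerve. The members were chosen by their own UMIs of C1q and of a few genes of other cells. A cell was a member when it held at least 5 UMIs of C1qa, C1qb and C1qc in sum, with at least 2 of the 3 genes present, and no UMI of Cd3d, Cd3e, Cd3g, Cd79a or Fscn1 and at most 1 of Siglech. A UMI (unique molecular identifier) stands for 1 captured transcript. Of 13770 cells, 13637 had at most 5000 genes and 20% mitochondrial UMIs, and 1749 of these were members. The source mice were neuropathic NOD.AireGW/+ mice, which carry a partial loss-of-function allele of Aire, a gene of central tolerance, on the autoimmunity-prone NOD background. Nerves were taken after cardiac perfusion and digested with collagenase IV, and no age was stated in the labels. There were 3 libraries and 1 group, with 1 mouse each in libraries 1 and 2 and 2 pooled mice in library 3. All libraries shared this genotype and state, and no control nerve was analysed here, so no effect of disease was tested.

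Macrophages of peripheral nerve take up myelin and dead cells, present peptides on MHC class II and release chemokines that draw in other leukocytes. C1q, assembled from the products of C1qa, C1qb and C1qc, starts the classical complement pathway and in tissues is made largely by macrophages. Circulating monocytes enter inflamed nerve through the chemokine receptor Ccr2 and can take on macrophage genes there, while macrophages already resident in healthy nerve are described by genes such as Lyve1, Mrc1 and Folr2 in the outer sheath and Cx3cr1 and Trem2 in the inner compartment.

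The 3 libraries differed widely in their number of members. The gate held 1741 of 8256 cells in library 2, a share of 21.1% (exact Clopper-Pearson 95% interval 20.2 to 22.0). It held 5 of 3848 cells in library 1 (0.130%, 0.0422 to 0.303) and 3 of 1533 cells in library 3 (0.196%, 0.0404 to 0.571). Library 2 thus gave 99.5% of the members, and the description below rests on that 1 mouse. Why the libraries differ was not tested, and the mouse, the library and its processing cannot be told apart. Intervals here and below cover counting error only. No member barcode was shared between libraries, although 36, 7 and 14 barcodes of all cells were shared between the pairs of libraries.

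Depth set the limits of each library. The libraries held 22983991, 55120460 and 3399733 UMIs. The median member had 9527, 7377 and 1595 UMIs in libraries 1 to 3, and in library 2 the 5th and 95th percentiles were 1588 and 14058 UMIs. The median member of library 2 showed 1980 genes, 1.07% mitochondrial UMIs and 153 C1q UMIs. The whole gate of library 2 summed to 13065555 UMIs, so that levels in it were precise, whereas the 3 cells of library 3 summed to 6230 UMIs.

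**Figure D1:**
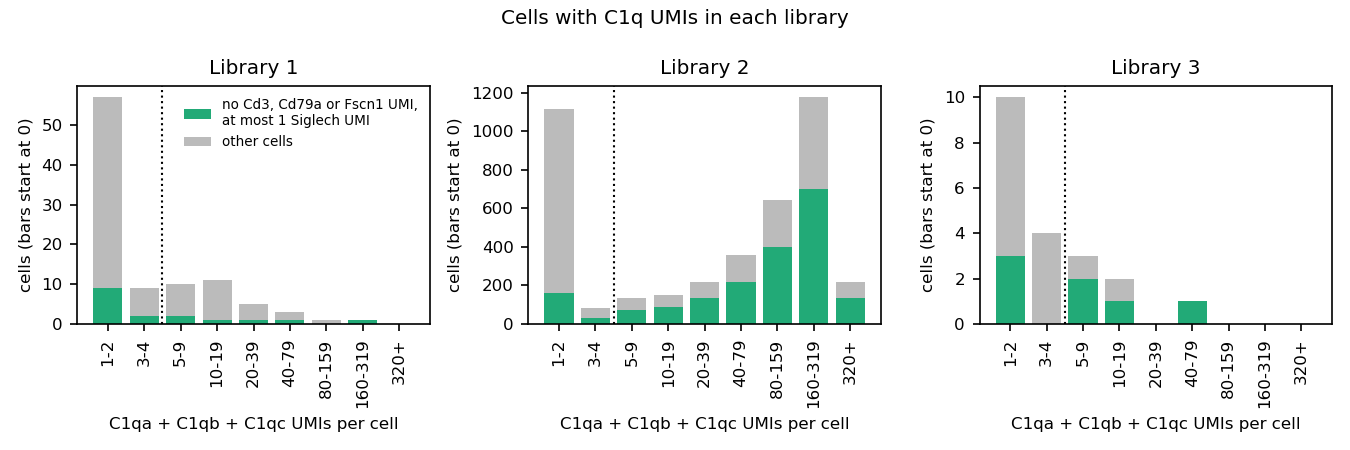
Number of cells (y axis, linear from 0, a scale of its own for each library) by the sum of C1qa, C1qb and C1qc UMIs in the cell (x axis, bins of growing width, cells with none left out), for the 3 libraries. Green cells had no Cd3, Cd79a or Fscn1 UMI and at most 1 Siglech UMI, grey cells had such UMIs, and the dotted line marks the minimum of 5. The green bars to its right sum to 6, 1743 and 4 cells, slightly above the members, because cells with only 1 of the 3 genes are drawn too. Library 2 holds most of its green cells far to the right of the line, and the other libraries hold few on that side.

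The threshold itself cut through few cells. In library 2, and with the exclusions applied, 32 cells held 3 or 4 C1q UMIs and 71 cells held 5 to 9, against 1582 cells with 20 or more. The cells just outside had a median of 2405 UMIs, an Apoe level of 6466 CPM (counts scaled to the summed UMIs of the class) and a Ccl8 level of 290 CPM. Those just inside had a median of 1346 UMIs, 14888 CPM of Apoe and 3118 CPM of Ccl8. The 90 cells with 10 to 19 stood at 11500 CPM of Apoe and 3490 CPM of Ccl8, and those with 20 or more at 33658 and 13773 CPM. Plac8, a gene higher in monocytes (below), ran the other way. It was at 762 CPM with 3 or 4 C1q UMIs, 457 with 5 to 9, 335 with 10 to 19 and 63.9 with 20 or more. Members with few C1q UMIs thus held more of this monocyte gene. These values are given as a description, since C1q UMIs chose the cells.

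The exclusions removed many of the cells with C1q. In library 2, 2896 cells met the C1q part of the rule and 1155 of them (39.9%) were left out, including 1058 with Cd3 UMIs, 115 with Fscn1, 76 with Cd79a and 55 with more than 1 Siglech UMI. Of those with Cd3, 593 held at least 10 Cd3 UMIs and had a median of 13494 UMIs per cell, against 7492.5 in cells with none. Apoe was at 18628 CPM and Lck, a kinase of T cell receptor signalling, at 212 CPM in these cells, against 32118 and 2.74 CPM in cells with no Cd3 UMI. Among the 4332 T cells of library 2, gated by at least 5 Cd3 UMIs from at least 2 of the 3 genes and no Cd79a, 753 carried at least 5 C1q UMIs and had a median of 12225 UMIs. The part of doublets, attached cells and free RNA in these numbers was not tested. Libraries 1 and 3 lost 25 of 30 and 2 of 5 cells in the same way.

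The label was set beside 3 marker genes that the gate did not read. For this check, monocytes were taken as cells with at least 3 UMIs of Ly6c2, Vcan, Chil3 and F10, and Cd209a dendritic cells as cells with at least 3 UMIs of Cd209a, Flt3, Zbtb46 and Clec10a, in each case with at least 2 of the 4 genes present, at most 2 C1q UMIs and the same exclusions as the macrophages. Dendritic cells also had to hold a Cd209a UMI, and a cell that met both rules was left out. Library 2 held 71 and 20 of them, with a median of 5117 and 7112 UMIs. Free RNA was read from 3544 T cells of library 2 with at most 2 C1q UMIs, whose median depth was 2958.5 UMIs against 7377 in the macrophages. The limit left out T cells with more C1q, such as 753 with at least 5 C1q UMIs. The level read in these T cells may therefore be too low for macrophage genes. Apoe, which encodes the lipid carrier apolipoprotein E, was at 32975 CPM in the macrophages, 8948 CPM in monocytes, 140 CPM in Cd209a dendritic cells and 278 CPM in the T cells. Ms4a7, a membrane protein gene common in tissue macrophages, was at 1390, 161, 0 and 9.02 CPM in the same order. Ccl8, which encodes a chemokine for monocytes and T cells, was at 13428, 139, 73.6 and 45.0 CPM. All 3 markers were thus highest in the gate. They were listed as markers with earlier results of these data known, and the other classes held at most 2 C1q UMIs. Part of this result was therefore set by the choice of genes and cells.

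General macrophage genes were present at levels shared with monocytes. Csf1r, the receptor for the macrophage growth factor CSF-1, was at 428 CPM in macrophages and 529 CPM in monocytes. The Fc receptor gene Fcgr1 was at 778 and 805 CPM. Adgre1, which encodes F4/80, was at 234 and 90.001 CPM. The lysozyme gene Lyz2 was at 16006 CPM in macrophages and 10527 CPM in monocytes. Of the 16 identity genes listed, 14 could be compared and only Ms4a7 was at least 4-fold apart. Of all genes compared, 1.76% were at least 4-fold higher in macrophages and 1.28% lower.

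Marker genes of other cell types summed to between 3.14 and 641 CPM in the gate of library 2. Part of this was set by the rule, since members had no UMI of the 3 Cd3 genes, Cd79a or Fscn1 and at most 1 of Siglech. The 7 T cell markers summed to 5.20 CPM in the macrophages of library 2, with 4 of 7 showing a UMI, the 4 endothelial markers to 3.14 CPM, with 3 of 4 showing one, and the 5 fibroblast markers to 4.90 CPM, with 5 of 5. The 6 monocyte markers summed to 160 CPM, against 3518 CPM in the monocytes, and all 6 showed a UMI. The 7 Schwann cell markers summed to 152 CPM, of which Pmp22 made up 133 CPM and the myelin protein gene Mbp 16.6 CPM. The 6 B or plasma cell markers summed to 113 CPM, with Ighm at 53.7 CPM and Jchain at 32.8 CPM. The 4 plasmacytoid dendritic markers summed to 641 CPM, of which 597 CPM was Bst2, an interferon-inducible gene that macrophages also use. The 5 neutrophil markers summed to 72.9 CPM, with 2 of 5 showing a UMI and S100a9 at 0. The markers of Cd209a dendritic cells summed to 14.4 CPM, of mature dendritic cells to 6.12 CPM, of NK cells to 5.13 CPM and of mast cells to 3.29 CPM. The Schwann cell sum was higher than in monocytes (40.9 CPM) and in T cells with at most 2 C1q UMIs (62.5 CPM). So were the plasmacytoid (382 and 390 CPM), fibroblast (0 and 1.19 CPM) and B or plasma cell sums (90.0 and 110 CPM). Every other set was higher in monocytes or in those T cells than in the macrophages.

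Resident-type markers of the outer nerve sheath ranged from near the floor of 0.230 CPM (3 UMIs) to high levels. Lyve1, a hyaluronan receptor gene, had 13 UMIs in all macrophages of library 2 (0.995 CPM), and Cd163, which encodes a haemoglobin scavenger receptor, had 12 UMIs (0.918 CPM). The mannose receptor gene Mrc1 was at 31.8 CPM, the folate receptor gene Folr2 at 21.0 CPM, Cbr2 at 23.6 CPM and Pf4 at 21.7 CPM. Higher in the same list of 15 genes stood Selenop, which encodes a selenium carrier, at 1213 CPM against 728 CPM in monocytes, and the scavenger receptor gene Stab1 at 100.1 and 87.3 CPM. Retnla was at 100.5 and 43.6 CPM, with its UMIs in 12 macrophages. Of the 4 genes of this list compared with monocytes, F13a1 was at least 4-fold lower and none was higher. Of all genes, 1.28% were lower and 1.76% higher. The median log2 difference of the 4 was 0.47, against -0.28 over all genes. Of the 5 compared with Cd209a dendritic cells, Retnla, Stab1 and Selenop were at least 4-fold higher and Timd4 and F13a1 lower. There 6.94% of all genes were higher and 6.16% lower. After each cell was thinned to 1000 UMIs, Mrc1 was seen in 64 of 1708 macrophages, or 3.75% (2.90 to 4.76), and in 0.0858% of the 3495 T cells with at most 2 C1q UMIs that were deep enough. Lyve1 was seen in 2 of 1708 macrophages. Mrc1 and Folr2 were therefore present above the level in these T cells, in few cells, whereas Lyve1 was barely detectable at this depth. The limit on C1q in the T cells may lower that level.

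Genes used to describe the inner compartment or microglia gave a mixed picture. Trem2, a lipid-sensing receptor gene, was at 1037 CPM in macrophages and 475 CPM in monocytes. The fractalkine receptor gene Cx3cr1 was at 362 and 262 CPM, and Olfml3 at 112 and 27.3 CPM. Tmem119 was at 88.6 CPM and the purinergic receptor gene P2ry12 at 27.6 CPM in macrophages. Sall1, a transcription factor gene of microglia, had no UMI among the 13065555 of the gate, which allows up to 0.230 CPM. Cx3cr1 was seen in 31.1% of thinned macrophages (28.9 to 33.3) against 0.744% of the T cells, and Trem2 in 59.4% against 0.773%.

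**Figure D2:**
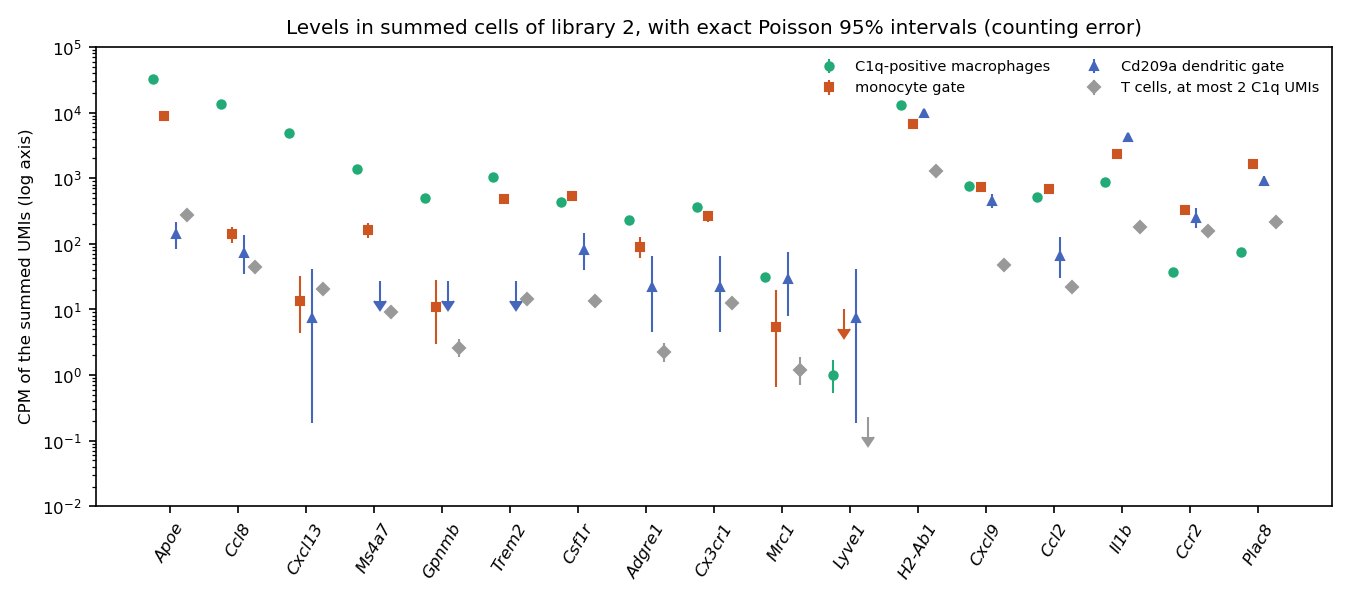
Level of 17 genes (x axis) in the summed UMIs of 4 cell classes of library 2, in CPM on a log axis (y axis), with exact Poisson 95% intervals that cover counting error only. Downward arrows end below the upper limit of a class with no UMI of the gene. Macrophage points lie above all other classes for Apoe, Ccl8, Cxcl13, Ms4a7, Gpnmb and Trem2, and below all other classes for Ccr2 and Plac8.

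The macrophages were then set against monocytes, to ask which genes separate the members from the cells that could feed into them. Only library 2 held at least 10 cells of both classes, so no test of replicates was made, and a gene was counted when its CPM differed at least 4-fold and reached 50 CPM in 1 of the classes. Genes read by any gate were left out. Both classes were picked on UMIs of the same cells, so genes that go with the gate genes were bound to differ in part, and the counts are a description. Of 2504 genes compared, 44 (1.76%) were at least 4-fold higher in macrophages and 32 (1.28%) at least 4-fold lower. The median gene was lower in macrophages by a log2 difference of -0.28, and TMM scaling moved all differences by 0.21 in favour of macrophages, which gave 54 genes higher and 23 lower.

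Secreted signals led the genes that were higher. Cxcl13, the chemokine that attracts B cells and CXCR5+ T cells, was at 4815 CPM in macrophages and 13.6 CPM in monocytes, from 5 UMIs, a ratio of 353 (151 to 1088). Ccl8 was 96.5-fold higher (73.4 to 130). Gdf15, a stress-induced cytokine of the TGF-beta family, was at 181 CPM against 2.73 CPM, from 1 UMI, so that its ratio of 66.4 had an interval of 11.9 to 2623. Timp2, an inhibitor of matrix metalloproteinases, was at 685 against 54.5 CPM. Gpnmb, a membrane glycoprotein gene of lipid-laden phagocytes, was at 500 CPM against 10.9 CPM, from 4 UMIs. Pmepa1 (12.1-fold), the lectin-like receptor gene Cd72 (11.4-fold), Ms4a7 (8.64-fold), the complement gene C4b (8.29-fold) and Zmynd15 (7.10-fold) completed the 10 largest.

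Genes of blood monocytes led those that were lower. Ear2, a ribonuclease gene, was at 3.67 CPM in macrophages and 213 CPM in monocytes, and Ifitm6 at 2.07 and 115 CPM. Plac8 was at 74.5 and 1669 CPM, a ratio of 22.4 in favour of monocytes (20.2 to 24.8). Ly6c1 was 18.97-fold and Gm9733 22.4-fold lower. The apolipoprotein gene Apoc2 (17.1-fold), the clotting factor gene F13a1 (13.6-fold), the haptoglobin gene Hp (10.7-fold) and S100a4 (9.54-fold) were lower too. Ccr2, the receptor by which monocytes reach inflamed tissue, was at 36.7 CPM in macrophages and 327 CPM in monocytes, 8.91-fold lower (7.23 to 10.9).

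A test became possible when the minimum was lowered to 5 cells, which adds the 5 macrophages and 30 monocytes of library 1. In the quasi-likelihood test of edgeR each library formed a block. P-values were adjusted by the Benjamini-Hochberg method over all genes tested, gate genes included. The C1q genes among them were bound to differ, which could ease the adjustment. Of the 10073 genes left without the gate genes, 56 (0.556%) were called higher in macrophages and 52 (0.516%) lower. In this fit 5 residual degrees of freedom were left. These calls included 32 of the 44 and 25 of the 32 genes that were 4-fold apart in library 2. The fit held the same library 2 sums that picked these genes, so overlap was bound to arise in part. In library 1 alone, 30 of the 38 higher genes with a UMI there differed the same way. Of the lower genes, 29 of 32 did. Of the largest differences named above, 10 of 10 higher and 9 of 10 lower were called, and Apoc2 was not (edgeR adjusted p = 0.0633). Olfml3 was not called either (edgeR adjusted p = 0.230). Cxcl13 was higher by 9.53 on the log2 scale (edgeR adjusted p = 3.399e-05), Ccl8 by 9.13 (adjusted p = 8.751e-04), and Ccr2 fell by 2.00 (adjusted p = 0.0202). The macrophage side of this fit was 1 sum of 1741 cells and 1 sum of 5 cells. In the small sum, 2 cells that gave 16930 and 9527 of its 40200 UMIs carried the monocyte genes Plac8 and Ly6c2 and no Ccl8, and 1 cell held 182 of its 196 Ccl8 UMIs. Without the library block edgeR called 0 genes, with 680 at an unadjusted p under 0.05, while DESeq2 with the block called 16 higher and 17 lower.

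Gene groups were read against the shares over all genes, of which 1.76% were at least 4-fold higher than in monocytes and 1.28% lower. Of 18 lipid and lysosome genes compared with monocytes, 4 were at least 4-fold higher (Gpnmb, Cd9, Cd63 and Ctsd) and none lower, with a median log2 difference of 0.84 against -0.28 over all genes. Ctsd, which encodes the lysosomal protease cathepsin D, was at 2302 CPM against 559 CPM, and Cd63, a protein of late endosomes, at 1477 CPM against 229 CPM. The fatty acid carrier gene Fabp5 was at 2020 and 537 CPM, just under 4-fold apart. Lpl, which encodes lipoprotein lipase, went the other way, with 13 UMIs (0.995 CPM) in macrophages and 15 UMIs (40.9 CPM) in monocytes. In the fit with 5-cell sums, Gpnmb, Cd9 and Cd63 were called higher and Lpl lower, and Ctsd was not called (edgeR adjusted p = 0.125).

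Chemokine genes split. Of 15 compared with monocytes, Ccl8, Cxcl13, Ccl7 and Ccl3 were at least 4-fold higher and Ccl6 and Ccl9 at least 4-fold lower, where 1.76% and 1.28% of all genes were. In the fit with 5-cell sums, Ccl7 was not called (edgeR adjusted p = 0.130) and the other 5 were. The CCR2 ligand genes Ccl2, Ccl7 and Ccl12 did not move as 1 block. Ccl2 was at 510 CPM in macrophages and 682 CPM in monocytes, Ccl7 at 262 and 57.3 CPM, and Ccl12 at 654 and 191 CPM. Ccl8 lies beside Ccl12 on chromosome 11 of mm10 (82115185 to 82116799, plus strand, and 82101845 to 82103400) and was by far more abundant than these genes. Which receptor it uses was not read here. Cxcl9, an interferon-induced ligand of CXCR3 on T cells, was at 769 and 745 CPM, and Cxcl16, the ligand of CXCR6, at 824 and 595 CPM. Cxcl10 was at 251 CPM in macrophages and 592 CPM in monocytes.

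Cytokine genes were few and mostly modest. Il18bp, a soluble inhibitor of IL-18, was at 432 CPM against 104 CPM in monocytes, and Tnfsf13b, the B cell survival factor BAFF, at 50.8 against 10.9 CPM, and these were the 2 of 10 compared that were at least 4-fold higher, where 1.76% of all genes were. In the fit with 5-cell sums, Tnfsf13b was called higher (edgeR adjusted p = 0.0187) and Il18bp was not (adjusted p = 0.617). Il1b was at 892 CPM in macrophages, 2359 CPM in monocytes and 4232 CPM in Cd209a dendritic cells. Tnf was at 105 CPM against 49.1 CPM, and Osm at 131 CPM in both. Il10 had 18 UMIs (1.38 CPM), Il12b also 18 UMIs and Il6 only 1 UMI in the whole gate. Il10 was seen in 1 of 1708 thinned macrophages and in 4.98% of the T cells. The receptor gene Il21r was at 88.8 CPM in macrophages and 123 CPM in monocytes. None of the 17 cytokine receptor genes was 4-fold apart, where 1.76% of all genes were higher and 1.28% lower.

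Antigen presentation genes were abundant in the gate. Cd74, the invariant chain of MHC class II, was at 41782 CPM in macrophages, 21794 CPM in monocytes and 36681 CPM in Cd209a dendritic cells. H2-Ab1 was at 12988, 6616 and 9899 CPM. None of the 8 genes of this group compared with monocytes was 4-fold apart, where 1.76% of all genes were higher and 1.28% lower. None of the 9 compared with Cd209a dendritic cells was either, where 6.94% were higher and 6.16% lower. A count of none says little at these shares. H2-Eb1 was 2.15-fold higher than in monocytes (2.06 to 2.24) and was called in the fit with 5-cell sums (edgeR adjusted p = 0.0264). In that fit, H2-Ab1, H2-Aa and Cd74 were not called (edgeR adjusted p = 0.0633, 0.122 and 0.160). Neither were H2-DMa, H2-DMb1 and Ciita. The costimulatory genes Cd40 (143 and 164 CPM) and Cd86 (92.0 and 79.1 CPM) stood close to the monocyte level, and Cd80 was at 5.59 CPM.

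Interferon response and complement genes were read against the same shares. None of 15 interferon response genes was 4-fold apart from monocytes, where 1.76% of all genes were higher and 1.28% lower. A count of none says little at shares this small. The median log2 difference of the 15 was -0.61 against -0.28 over all genes. Gbp2 was at 189 CPM against 398 CPM and Isg15 at 150 against 434 CPM. In the fit with 5-cell sums, Ifit1 (5.82 and 21.8 CPM) fell by 2.13 on the log2 scale (edgeR adjusted p = 0.0167), and Isg15 was not called (adjusted p = 0.0609). Nos2, which encodes inducible nitric oxide synthase, had 41 UMIs (3.14 CPM). Among complement genes, C3 was at 225 and 213 CPM, the C3a receptor gene C3ar1 at 256 and 125 CPM and Cfb at 309 and 665 CPM, and only C4b of 9 was at least 4-fold apart. C1s1, a protease partner of C1q, had 18 UMIs, and C1ra was at 16.0 CPM. The engulfment receptor gene Mertk was at 39.1 CPM and Axl at 87.4 CPM.

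Cell cycle genes were rare. Mki67 was at 11.02 CPM and Top2a at 3.14 CPM in macrophages, and at 52.4 and 53.0 CPM in T cells with at most 2 C1q UMIs. After thinning, Mki67 was seen in 1.35% of macrophages (0.855 to 2.01) and 2.15% of the T cells, and Top2a in 0.234% and 2.58%. The macrophage shares were below those of T cells. These T cells held more of both genes, so they give no level of free RNA for them. Whether some macrophages were cycling was not tested. Of the genes that rise during tissue dissociation, Fos was at 2333 CPM in macrophages, 1396 CPM in monocytes and 1369 CPM in Cd209a dendritic cells, and Junb at 2336, 2149 and 2318 CPM. None of the 9 compared with monocytes was 4-fold apart, where 1.76% of all genes were higher and 1.28% lower. Ier2 was at least 4-fold lower than in Cd209a dendritic cells (315 and 1494 CPM), where 6.16% of all genes were.

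More genes were at least 4-fold apart between macrophages and Cd209a dendritic cells than between macrophages and monocytes. Of 2826 genes compared, 196 (6.94%) were at least 4-fold higher in macrophages and 174 (6.16%) lower, with the dendritic side resting on 20 cells and 135873 UMIs. The monocyte side held 366662 UMIs. Fewer UMIs widen the counting error of each ratio, and the 2 comparisons were not made at equal depth. With TMM scaling, which moved all differences by 0.41, the counts were 279 and 101. Cxcl13 was at 7.36 CPM in dendritic cells, from 1 UMI, and its ratio of 654 had an interval of 117 to 25842. Apoe was 236-fold higher in macrophages (151 to 392) and Ccl8 182-fold (99.2 to 380). Chil1, Saa3, Cd63 and Ms4a7 had no dendritic UMI, and against the 3 UMIs that a count of 0 allows they were at least 80.8, 68.5, 66.9 and 63.0-fold higher. Timp2, Pla2g7 and Spp1 completed that side. In the other direction, the lectin genes Cd209d and Mgl2, Il4i1 and Cd7 were at 0.230, 1.38, 1.22 and 2.76 CPM in macrophages against 500, 390, 515 and 802 CPM. Cyp7b1 had no macrophage UMI and was at least 449-fold lower. Ifitm6, Bcl11a, Kmo, Ifitm1 and Timd4 were lower as well.

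By group, 12 of 18 lipid and lysosome genes, 9 of 14 identity genes and 9 of 15 chemokine genes were at least 4-fold higher than in Cd209a dendritic cells, where 6.94% of all genes were. None of these lipid or identity genes was 4-fold lower, and Ccl9 was the 1 chemokine that was. Both comparisons share the macrophages of library 2. Only library 2 held at least 5 cells of both classes, and the design gave no test with fewer than 2 such libraries. Library 1 held 5 macrophages and 3 dendritic cells, and a test on sums that small was not run.

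The 8 members of the other libraries are given cell by cell. In library 1, 1 cell of 10607 UMIs carried 254 C1q UMIs, 163 of Apoe, 182 of Ccl8, 24 of Cxcl13 and 22 of Ms4a7. A second cell, of 1888 UMIs, had 25 C1q UMIs and 16 of Cxcl13 with 1 of Ccl8, and another, of 1248 UMIs, had 5 C1q UMIs and 13 of Ccl8. The remaining 2 cells, of 16930 and 9527 UMIs, had 55 and 19 C1q UMIs but no Ccl8, Cxcl13 or Ms4a7, and instead 42 and 18 UMIs of Plac8 and 20 and 13 of Ly6c2. The monocyte markers summed to 3010 CPM over the 5 cells of library 1. These 2 cells thus carried monocyte genes together with C1q.

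In library 3, the 3 cells had 1595, 663 and 3972 UMIs and 17, 9 and 44 C1q UMIs. Only the smallest held Ccl8 (3 UMIs), Ms4a7 (3 UMIs) and Cxcl13 (1 UMI). The largest held 65 UMIs of Cxcl9, 11 of Il1b and 8 of Plac8 and none of Ccl8. All 8 cells of libraries 1 and 3 held Apoe, H2-Ab1 and Cd74 and none held Gpnmb, of which the macrophages of library 2 had 6527 UMIs. With 40200 and 6230 UMIs in the 2 gates, 3 UMIs stand for 74.6 and 482 CPM, against the 500 CPM of Gpnmb in library 2. Gpnmb was uneven over cells, with a UMI in only 36.3% of library 2 macrophages before thinning. Its absence from these 8 cells therefore does not show a lower level in libraries 1 and 3.

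Within library 2 the members differed widely in Ccl8 and Cxcl13. After thinning to 1000 UMIs, which left 1708 cells and dropped 33 shallower ones, Ccl8 was seen in 71.7% of cells (69.5 to 73.8) against 6.35% of the T cells with at most 2 C1q UMIs. Its median was 5 UMIs and its highest value 119, and the 171 cells with most Ccl8 held 41.7% of its UMIs. Cxcl13 was seen in 48.0% of cells (45.6 to 50.4) against 2.80% of T cells, and its top 171 cells held 52.9% of its UMIs. Cxcl9 was seen in 29.1% (27.0 to 31.3) against 1.09%, Il1b in 32.7% against 2.72% and Gpnmb in 18.5% (16.7 to 20.4) against 0.2003%. The ratio of variance to mean over cells, which is 1 for counting noise alone and grows with the mean, was 22.0 for Ccl8, 14.1 for Cxcl13, 12.3 for Lyz2 and 10.4 for Apoe. Other chemokines had lower ratios, such as 4.28 for Cxcl9, 4.04 for Ccl12 and 3.28 for Ccl2. Their means were also far lower, at 0.748, 0.678 and 0.552 UMIs against 12.1 for Ccl8. Their top 171 cells held 67.7%, 65.8% and 67.1% of their UMIs, more than for Ccl8 or Cxcl13. Neither measure ranks the spread of genes with unlike means. The ratio was 2.71, 2.17 and 1.84 for C1qa, C1qb and C1qc, whose low values the gate removed, and 1.21 for Trem2. Gm42418, named after its value was seen, had the highest ratio of the genes examined at 56.1.

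**Figure D3:**
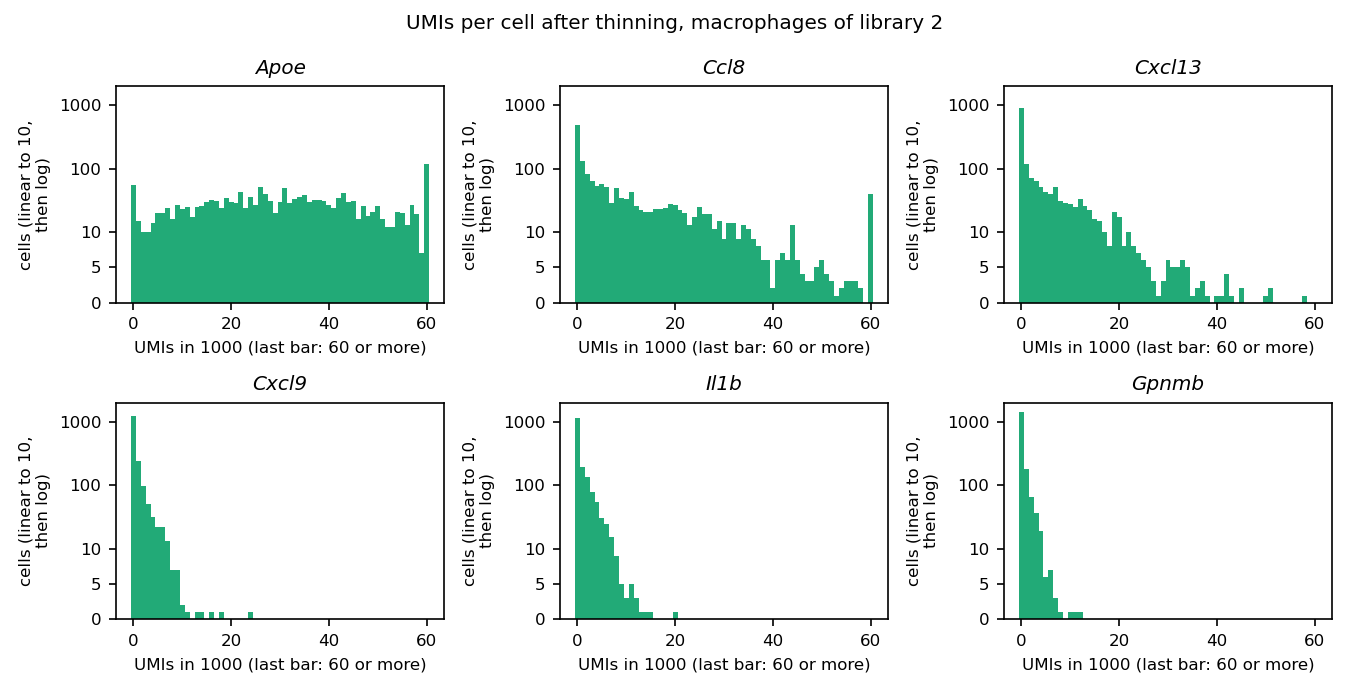
Number of macrophages of library 2 (y axis, linear up to 10 and logarithmic above) by UMIs of 6 genes in 1000 UMIs of the cell (x axis, the last bar collecting 60 or more). Apoe is spread over the whole range, Ccl8 and Cxcl13 have a large class at 0 with a long tail, and Cxcl9, Il1b and Gpnmb are mostly at 0.

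Ccl5 was left out of this reading. It was seen in 70.8% of macrophages but also in 51.6% of the T cells, where its level was 11681 CPM against 4192 CPM in macrophages. Its part from free RNA was not tested.

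Genes that went together across cells were looked for by Spearman's rho between thinned counts over the 1708 cells, which share 1 library. Among 2045 genes seen in at least 5% of cells, 17 reached a rho of 0.2 with Ccl8 and 12 a rho of -0.2 or below. Apoe was highest at 0.45, followed by C1qa (0.33), Ms4a7 (0.32), Lyz2 (0.31), Timp2 (0.30) and Cxcl13 (0.30). On the negative side stood Tgfbi (-0.30), Ifi27l2a (-0.27), Ifitm3 (-0.24) and Plac8 (-0.23). Ccl8 itself had a rho of 0.17 with the UMIs of the cell before thinning. The gate read C1qa, C1qb and C1qc and removed their low values. Any rho with them, here and below, is given only as a description.

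The gradient was clear in the means. Cells with no Ccl8 UMI in 1000 (484 cells) had a mean of 19.9 Apoe UMIs in 1000, and cells with 1 to 4 (330 cells), 5 to 19 (485 cells) and 20 or more (409 cells) had 30.3, 36.2 and 40.8. C1qa, which the gate read, went from 5.64 to 9.41 UMIs between the first and the last of these bins. Cxcl13 went from 2.26 to 6.17 UMIs. Plac8 went from 0.256 to 0.00489, Ccr2 from 0.0992 to 0.00733, Tgfbi, a matrix protein gene of monocytes and macrophages, from 1.76 to 0.579 and Il1b from 1.47 to 0.577. Cd74 stayed between 38.5 and 41.9. The median depth of the 4 bins was 6900, 6959, 7490 and 8455 UMIs per cell. Cells low in Ccl8 thus held more Plac8 and Ccr2, which were also higher in monocytes and called in the fit with 5-cell sums. Il1b was seen in more monocytes than macrophages of library 2 too (56.3% against 32.7% after thinning). In that fit, Il1b and Tgfbi were not called (edgeR adjusted p = 0.505 and 0.614), which does not show equal levels.

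The start regions of 3 of these genes are shown because C1qb and Ccl8 went together over cells (rho 0.26) while Cxcl9 and Ccl8 did not (rho 0.01). Each is the 250 bases before the RefSeq start on GRCm38.p6, read 5′ to 3′ on the gene's strand, at chr4:136886201-136886450 (minus) for C1qb, chr11:82114935-82115184 (plus) for Ccl8 and chr5:92328080-92328329 (minus) for Cxcl9. Capitals mark GAGGAA, a core that PU.1 and related ETS factors can bind, and TGCTGA, a half-site of MAF factors, on either strand. No entry was at hand for C1qa. C1qc (rho 0.26 with Ccl8) is not printed, since its window overlaps the annotated gene. It held GAGGAA, reversed, and no TGCTGA.
C1qb: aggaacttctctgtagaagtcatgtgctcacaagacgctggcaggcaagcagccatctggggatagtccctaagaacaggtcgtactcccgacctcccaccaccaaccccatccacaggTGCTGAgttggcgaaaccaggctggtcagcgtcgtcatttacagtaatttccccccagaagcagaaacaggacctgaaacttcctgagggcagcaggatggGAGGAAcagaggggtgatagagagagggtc
Ccl8: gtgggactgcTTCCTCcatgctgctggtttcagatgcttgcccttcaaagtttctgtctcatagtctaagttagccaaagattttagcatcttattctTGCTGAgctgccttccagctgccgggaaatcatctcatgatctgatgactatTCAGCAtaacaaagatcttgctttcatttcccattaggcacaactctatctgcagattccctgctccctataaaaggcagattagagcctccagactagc
Cxcl9: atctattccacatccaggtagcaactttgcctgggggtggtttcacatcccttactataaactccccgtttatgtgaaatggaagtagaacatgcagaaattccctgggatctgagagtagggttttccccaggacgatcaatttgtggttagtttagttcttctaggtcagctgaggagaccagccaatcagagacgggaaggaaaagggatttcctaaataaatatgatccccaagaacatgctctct
In C1qb, GAGGAA began 30 bases and TGCTGA 131 bases before the start. In Ccl8, the reverse of GAGGAA began 240 bases before the start and TGCTGA was found at 152 bases and, reversed, at 100 bases. Cxcl9 held neither, nor did any of the 3 hold TTCNNNGAA, the pattern of gamma-activated sites. Over 32851 RefSeq promoter windows of the same length, 23.3% held GAGGAA, 16.1% TGCTGA and 7.02% TTCNNNGAA, so single matches of this kind are common. The 3 windows were chosen after values were seen, and C1qb was read by the gate. Whether such matches go with co-expression was not tested.

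A second set of genes went with Gpnmb. Fabp5 had a rho of 0.44 with it, Ctsd 0.39, the cathepsin gene Ctsb 0.38, Lyz2 0.36, the lysosomal saposin precursor gene Psap 0.36 and the galectin gene Lgals3 0.34. The 139 cells with 2 or more Gpnmb UMIs in 1000 had a mean of 5.55 Fabp5 UMIs, the 177 with 1 had 3.01 and the 1392 with none had 1.07. Ctsd followed with 5.75, 3.16 and 1.45 UMIs, and Lyz2 with 29.0, 21.2 and 11.9. Saa3, an acute phase protein gene, was at 3.35, 2.53 and 0.936 and Spp1, which encodes osteopontin, at 1.01, 0.565 and 0.275. Cxcl13 ran the other way, at 1.24, 2.30 and 5.36 UMIs, and so did Il1b at 0.194, 0.288 and 1.10. Gpnmb also had a rho of 0.27 with the depth of the cell, and the median cell of these bins had 10074, 9190 and 7046.5 UMIs, whose part in the pattern was not tested.

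**Figure D4:**
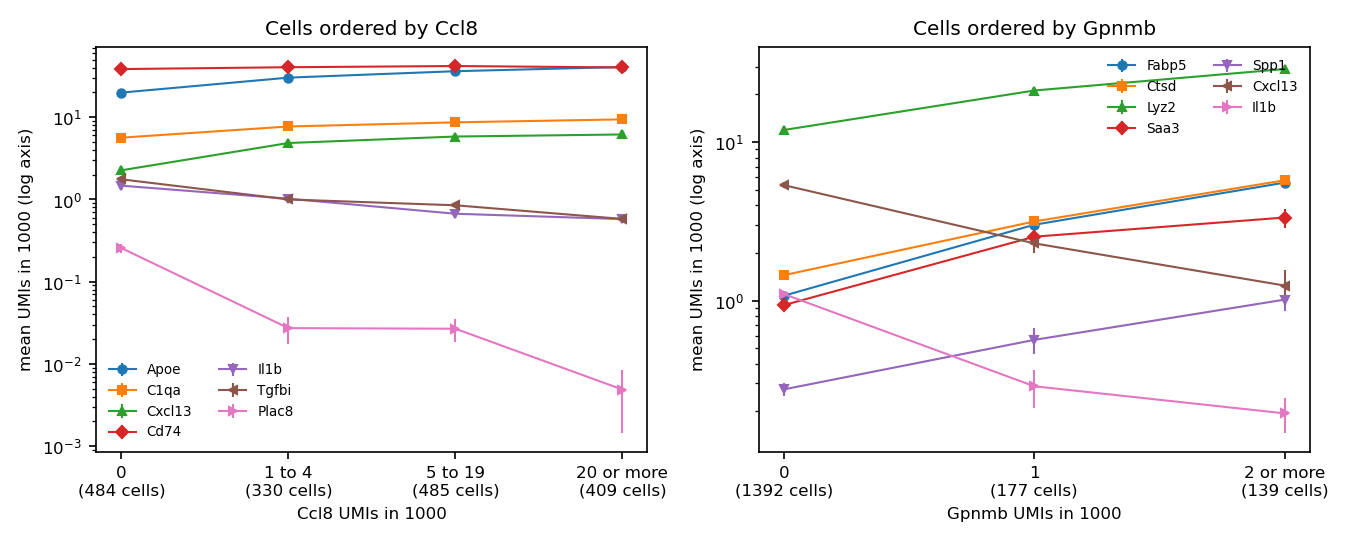
Mean UMIs in 1000 (y axis, log scale, bars are the standard error over cells, which share 1 library) of named genes in macrophages of library 2, in bins of Ccl8 (left) and Gpnmb (right) UMIs in 1000. Apoe, C1qa and Cxcl13 increase and Plac8, Tgfbi and Il1b decrease with Ccl8, while Fabp5, Ctsd, Lyz2, Saa3 and Spp1 increase and Cxcl13 and Il1b decrease with Gpnmb.

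The remaining genes gave smaller sets. H2-Ab1 went with Cd74 (rho 0.56), H2-Eb1 (0.54), H2-Aa (0.49) and C1qa (0.34), and had a rho of only 0.10 with Ccl8 and -0.07 with Gpnmb. Il1b had a rho of 0.23 with Cd14 and 0.21 with Ccrl2, and of -0.27 with Ctsb and -0.26 with Ctsd. Cells with 2 or more Il1b UMIs in 1000 (363 cells) had a mean of 1.02 Ctsd UMIs, against 2.37 in the 1150 cells with none. Cxcl9 reached 0.2 only with Gm15056 and Ccl5 (both 0.25). Its 257 cells with 2 or more UMIs had means of 7.28 Ccl5 UMIs against 3.23, and 12.9 Ccl8 UMIs against 12.2, in the 1211 cells with none. No gene reached a rho of 0.2 with Cx3cr1, Mrc1 or Mki67, and correlations this weak in sparse counts are not read further.

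**Figure D5:**
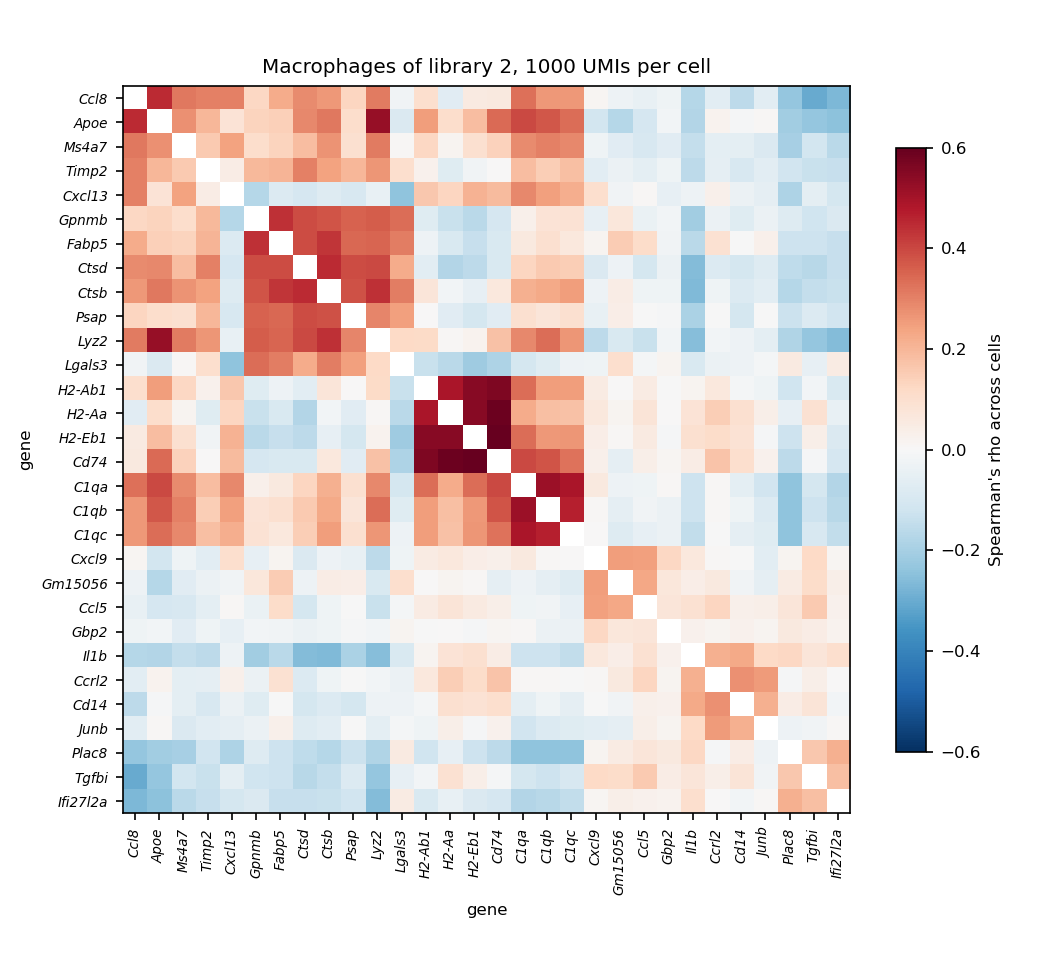
Spearman's rho across 1708 macrophages of library 2, thinned to 1000 UMIs, between 30 genes (both axes), in colour from -0.6 (blue) to 0.6 (red), with the diagonal left blank and the highest value of 0.64 drawn as 0.6. The MHC class II genes, the C1q genes and the lysosome genes around Gpnmb form red blocks, and Plac8, Tgfbi and Ifi27l2a are blue against Ccl8 and Apoe.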

How the data were processed

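The deposited files hold raw UMI counts per gene and cell, which the authors made from 10x 5′ gene expression reads with Cell Ranger (5.0.1 for library 1 and 6.1.2 for libraries 2 and 3, per the file headers) on mm10. Library 1 came without a gene list and was read in the row order of the others (Spearman's rho of row totals with library 2 of 0.950, against 0.362 when shifted by 1 row). Members, lists and tests were chosen with earlier results of these data known. Raw counts were summed per class and given as CPM of the class total, with exact Poisson and Clopper-Pearson intervals. For shares, cells were thinned without replacement to 1000 UMIs. Sums of at least 10 cells were planned for edgeR 4.0.16 (R 4.3.3), which left 1 library, so folds were given without a test, and sums of at least 5 cells were an alternative, with DESeq2 1.42.0 beside it. The rule for named genes took all listed genes and markers, the 10 largest calls each way among genes at 50 CPM or more, and up to 8 genes with a rho of at least 0.2 with a set gene. With no test, the 10 largest folds of library 2 stood in for the calls. Negative rho, the genes shown in bins and the promoters were chosen after values were seen. Scrublet (scanpy 1.11.5) called 0, 0 and 2 doublets, too few to be used, so doublets were kept and the highest scores were left out as an alternative. The scripts were tested on simulated data. Values of some listed genes are not reported here.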

Additional observations from a re-analysis of the deposited data

How the results depend on the processing

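Of 81 alternatives, 46 stayed within 1.5 times the count or within counting error. The share of members in library 2 was 22.3% with the highest doublet scores left out and 35.1% with no exclusion by Cd3, Cd79a, Siglech or Fscn1, which gave 0.780% in library 1. Without those exclusions 78 genes were at least 4-fold higher than in monocytes. With no minimum CPM, 174 genes were higher and 2862 lower than in monocytes and 4673 lower than in Cd209a dendritic cells, where genes with few UMIs enter the smaller class. Against Cd209a dendritic cells, 101 genes were lower with TMM scaling (279 higher) and 103 with DESeq2 size factors (266 higher). These moved all genes by 0.41 and 0.39 on the log2 scale. Shares of cells with a UMI followed the depth by construction. At 500 UMIs, 2000 UMIs and without thinning they were 64.8%, 75.9% and 82.4% for Ccl8, 18.1%, 48.2% and 79.0% for Cx3cr1, 20.2%, 39.5% and 55.6% for Cxcl9, 11.8%, 24.6% and 36.3% for Gpnmb, and 2.13%, 5.69% and 14.8% for Mrc1. At 2000 UMIs (1616 cells) rho was 0.49 for Gpnmb with Fabp5 and 0.67 for H2-Ab1 with Cd74.

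In the edgeR fit on sums of at least 5 cells, genes called higher and lower numbered 129 and 100 with no filter, and 16 and 17 with DESeq2, which tested 3052 genes. Without the replicate block they numbered 0 and 0 (680 genes at an unadjusted p under 0.05). Leaving out each library gave 17 to 71 higher and 13 to 86 lower. Without library 2 the macrophage side was the 5 cells of library 1 alone, which gave 17 and 13, and without library 3 the lower calls were 86. There the lone sum was assumed to vary like the other classes. The libraries are separate mice, so only cell classes of 1 library share a block, and it was part of the fit. The tests on sums of at least 10 and 20 cells, a C1q minimum of 10 in the 5-cell fit and tests against Cd209a dendritic cells were not run, since the design gave no test where fewer than 2 libraries held enough cells of both classes. The alternatives of scaling, of no exclusion and of 2000 UMIs for rho, and those of the edgeR fit, were chosen after seeing the data. All levels rest on 1 mouse, and the 71 monocytes and 20 dendritic cells limit the smaller side of each ratio.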
